A study of Mus musculus with 15 samples.

Results

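Expression of 9 genes of TGF-beta signalling was followed through the 5 organoid conditions of the series. The genes were taken by symbol from the gene counts of each library, 9 of the 78298 genes listed, and were the ligands Tgfb1, Tgfb2 and Tgfb3, the receptors Tgfbr1 and Tgfbr2, the signal transducer Smad3, the inhibitors Smad7 and Skil, and Tgfbi, the gene of a secreted matrix protein that TGF-beta induces. In mouse small intestinal organoids, which are epithelial cultures grown from crypts in Matrigel, poly-A RNA was sequenced in 15 libraries, 3 per condition. All organoids came from crypts of adult female mice and had been transduced with lentiviral constructs driven by the L30 promoter and selected with antibiotics, so that the replicates of a condition are libraries of 1 transduced line and the control carries a transgene too. In Halo-NLS, the control, the transgene is L30prom_V5-Halo-GDGAGLIN-NLS_IRES_Puro, a HaloTag with a nuclear localization signal. SOX9-Halo organoids carry L30prom_Sox9-GDGAGLIN-Halo-V5_IRES_Puro and SOX9-mEGFP organoids L30prom_Sox9-GDGAGLIN-mEGFP-V5_IRES_Puro. Each SOX9 line was sampled while still budding and again later as spheroids. The SOX9-Halo spheroids also carry L30prom_H2B-GDGAGLIN-mEGFP-V5_IRES_Zeo and the SOX9-mEGFP spheroids L30prom_H2B-GDGAGLIN-mScarletI-V5_IRES_Neo, so within a line the spheroid shape, the second transgene and the later passage cannot be told apart. Halo-NLS carries no second transgene either, and the study places it first in its order of time in culture. Comparisons of spheroids with Halo-NLS therefore share this limit and add a difference between lines.

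TGF-beta ligands are secreted in a latent complex with their own propeptide and a latent TGF-beta binding protein, and are released from it by integrins, thrombospondin or proteases. The active ligand binds TGFBR2, which phosphorylates TGFBR1, which in turn phosphorylates SMAD2 and SMAD3. These enter the nucleus with SMAD4 and switch on targets that include the feedback inhibitors Smad7 and Skil. In the intestinal epithelium the pathway restrains proliferation, rises towards the villus and takes part in repair after injury.

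Between 28062722 and 40559766 reads per library were counted on genes (median 33491297). Each library had a count for 24214 to 40375 genes, most of all in Halo-NLS replicate 3. Sox9 itself, whose counts do not separate the transgene from the endogenous gene, had 515, 769 and 305 normalized counts in Halo-NLS replicates 1 to 3 and between 1336 and 23654 in the SOX9 libraries. No SOX9 library overlapped the control, and the lowest was SOX9-Halo_budding replicate 1. The summed level of 6 epithelial marker genes was 4862 to 11336 CPM (counts scaled to a common library size) in the 15 libraries, against 0.537 to 3.63 for 9 fibroblast and smooth muscle genes, 0.169 to 5.62 for 6 immune genes and 0.0353 to 1.35 for 4 endothelial genes. The 6 markers of adult small intestinal epithelium summed to 9253 to 10364 CPM in Halo-NLS, 4279 to 8855 in the budding SOX9 libraries, 3062 to 4620 in SOX9-mEGFP_spheroid and 131 to 233 in SOX9-Halo_spheroid, so the last condition no longer carried the tissue label's own markers at their former level.

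The letters upstream of the 3 members with the largest fitted changes, Tgfb1, Tgfb3 and Tgfbi, are shown because these genes carry the changes described below. Windows of 250 bases before the start of the canonical transcript were read on GRCm39 along the gene's strand, and the stretch shown leaves out bases that an annotated transcript of the gene holds in an exon. For Tgfb3 the stretch lies within an intron of a longer annotated transcript. Tgfb1 lies on the plus strand (chr7:25386140-25386389), Tgfb3 on the minus strand (chr12:86125896-86126071, where the opposite-strand gene Gm48008 also has exons) and Tgfbi on the plus strand (chr13:56757118-56757335). Capitals mark matches on either strand to GGCGC, a GC-rich SMAD site, ACAAAG, a SOX core site (CTTTGT when on the other strand), or GGAATG, a TEAD site. Matches to GGCGC overlap where both strands match in GGCGCC.
Tgfb1: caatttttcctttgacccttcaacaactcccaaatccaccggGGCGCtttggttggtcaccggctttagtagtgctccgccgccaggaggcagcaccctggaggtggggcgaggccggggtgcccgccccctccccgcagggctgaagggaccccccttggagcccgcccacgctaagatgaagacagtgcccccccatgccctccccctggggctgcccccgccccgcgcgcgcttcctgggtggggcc
Tgfb3: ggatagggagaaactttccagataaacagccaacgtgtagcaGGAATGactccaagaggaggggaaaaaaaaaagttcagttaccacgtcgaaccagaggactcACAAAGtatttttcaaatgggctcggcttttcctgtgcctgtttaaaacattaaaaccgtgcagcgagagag
Tgfbi: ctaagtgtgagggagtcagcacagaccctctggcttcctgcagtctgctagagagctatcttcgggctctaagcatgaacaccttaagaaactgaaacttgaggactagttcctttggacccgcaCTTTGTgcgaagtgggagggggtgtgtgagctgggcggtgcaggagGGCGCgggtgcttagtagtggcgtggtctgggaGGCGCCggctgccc
Base composition differed among the ligands, with the Tgfb2 window (56.8% G and C, letters not shown) between those of Tgfb1 and Tgfb3. Over the full 250 bases, the Tgfb1 window was 69.6% G and C and held 1 match, to GGCGC, whereas the Tgfb3 window was 49.2% G and C and held 1 match to GGAATG and 1 to ACAAAG. The Tgfbi window was 60.8% G and C, with 3 matches to GGCGC and 1 to ACAAAG. Among the windows of all 9 members, GGCGC was present in 6, ACAAAG in 2 and GGAATG in 1, against 34.8%, 15.9% and 12.1% of the windows of 21770 protein-coding genes. The longer SMAD box GTCTAGAC was found in 1 member, Smad7, and in 0.239% of all windows. The AP-1 site TGANTCA and the SOX site ACAATG were in 0 of the 9 windows and in 6.17% and 9.41% of all. A match is a description of the letters only.

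Levels are given as normalized counts, that is, counts divided by the library's TMM-scaled size and multiplied by the mean scaled size, with replicates 1, 2 and 3 in this order. In bulk RNA, fewer cells of a type and less RNA per cell cannot be told apart. A gene was called changed where the Benjamini-Hochberg adjusted p of edgeR's quasi-likelihood test over 17560 genes was 0.01 or lower, the size of the log2 fold change was 1 or more and the normalized count averaged 10 or more over the libraries. Of the 9 members 8 passed the filter on low counts, and Tgfb2 did not. The comparisons of a SOX9 condition with Halo-NLS share the 3 control libraries.

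Tgfb1, the main TGF-beta ligand of adult tissues (chr7:25386390-25404506), rose in spheroids of both lines. Halo-NLS had 190.8, 166.4 and 83.0 normalized counts, SOX9-mEGFP_budding 166.4, 85.1 and 81.0, and SOX9-Halo_budding 11.9, 90.5 and 19.5. SOX9-mEGFP_spheroid had 417.1, 656.9 and 1003, and SOX9-Halo_spheroid 704.8, 500.4 and 451.9. Each spheroid library lay above each budding and control library, while the control and budding libraries overlapped. Against budding organoids of the same tag, Tgfb1 was 6.27-fold higher in spheroids of the SOX9-mEGFP line (95% interval 2.57 to 15.3, log2 fold change 2.65 ± 0.60 SE, edgeR adjusted p = 0.0035) and 13.7-fold higher in SOX9-Halo_spheroid (5.30 to 35.2, log2 3.77 ± 0.64, edgeR adjusted p = 0.00021). The larger change in the Halo line started from the low budding libraries, and the interaction test did not call the difference between the 2 changes (log2 difference 1.12, 95% interval -0.62 to 2.87, edgeR adjusted p = 0.46).
Against Halo-NLS, Tgfb1 was 4.71-fold higher in SOX9-mEGFP_spheroid (95% interval 1.96 to 11.3, edgeR adjusted p = 0.0062). In SOX9-Halo_spheroid the log2 fold change was 1.91 ± 0.59 (SE) with an edgeR adjusted p of 0.014, which missed the threshold of 0.01 in the same direction. This call depended on the setting, since DESeq2 gave 0.0052 and removal of the GC trend described below 0.0018. The calls in SOX9-mEGFP_spheroid were lost when replicate 2 or 3 of that condition was left out (adjusted p 0.0155 and 0.0299 against Halo-NLS, 0.0102 and 0.0196 against budding), and likewise without Halo-NLS replicate 2 or 3 (0.0163 and 0.0316) or SOX9-mEGFP_budding replicate 2 or 3 (0.0237 and 0.0197), always with a log2 fold change of at least 1.86. The rise within the SOX9-Halo line kept its call in 15 of 15 omissions. In budding organoids the log2 fold change against Halo-NLS was -0.41 (95% interval -1.65 to 0.83) for SOX9-mEGFP and -1.86 (-3.16 to -0.56, edgeR adjusted p = 0.046) for SOX9-Halo, neither of which was called. Without SOX9-Halo_budding replicate 2, the highest of its condition, the latter was -3.22 with an adjusted p of 0.0025.

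Tgfb2, the second ligand, stayed near 0. Its libraries held 0 to 7 counts each, and the normalized counts ran from 0 to 8.80, both extremes in Halo-NLS. It was not tested.

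Tgfb3, the third ligand (chr12:86102756-86126301), was present in 1 condition only. SOX9-Halo_spheroid had 746.2, 769.0 and 990.3 normalized counts, from 630 to 1100 counts per library. In the other 12 libraries the raw count was at most 4, with 3 the highest in Halo-NLS, 4 in either budding condition and 1 in SOX9-mEGFP_spheroid. Summed over libraries and scaled, the SOX9-Halo_spheroid level was 466 times that of SOX9-Halo_budding (2543 against 6 counts, exact 95% counting interval 214 to 1270) and 1340 times that of SOX9-mEGFP_spheroid (against 2 counts, 371 to 11074). These intervals and the limits below cover counting error only. The increase was called against Halo-NLS, SOX9-Halo_budding and SOX9-mEGFP_spheroid (edgeR adjusted p = 7.6e-08, 7.0e-08 and 1.3e-07). Budding and spheroid organoids differed by more in the SOX9-Halo than in the SOX9-mEGFP line (interaction test, edgeR adjusted p = 0.00038), a call that was lost without SOX9-mEGFP_budding replicate 3 (adjusted p = 0.062). Of the exonic bases of Tgfb3, 13.0% are shared with genes on the other strand (Ttll5, Gm37804 and Gm48008), and counting without strand leaves out reads there as ambiguous.
The RPKM scale divides by library size and by the length of all annotated exons of the gene merged. On it Tgfb3 made up 50.6%, 59.9% and 67.9% of the summed level of the 3 ligands in SOX9-Halo_spheroid. By this length, Tgfb3 was above the other 2 ligands together in each library. In replicate 1 the margin was small, with 630 counts of Tgfb3 against 595 of Tgfb1, so the ranking there depends on the length used. In SOX9-mEGFP_spheroid Tgfb3 made up at most 0.148%. The summed ligand level was 7.33 to 8.43 RPKM in SOX9-Halo_spheroid, 2.46 to 5.89 in SOX9-mEGFP_spheroid, and 0.0859 to 1.13 in the 9 control and budding libraries.

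**Figure D1:**
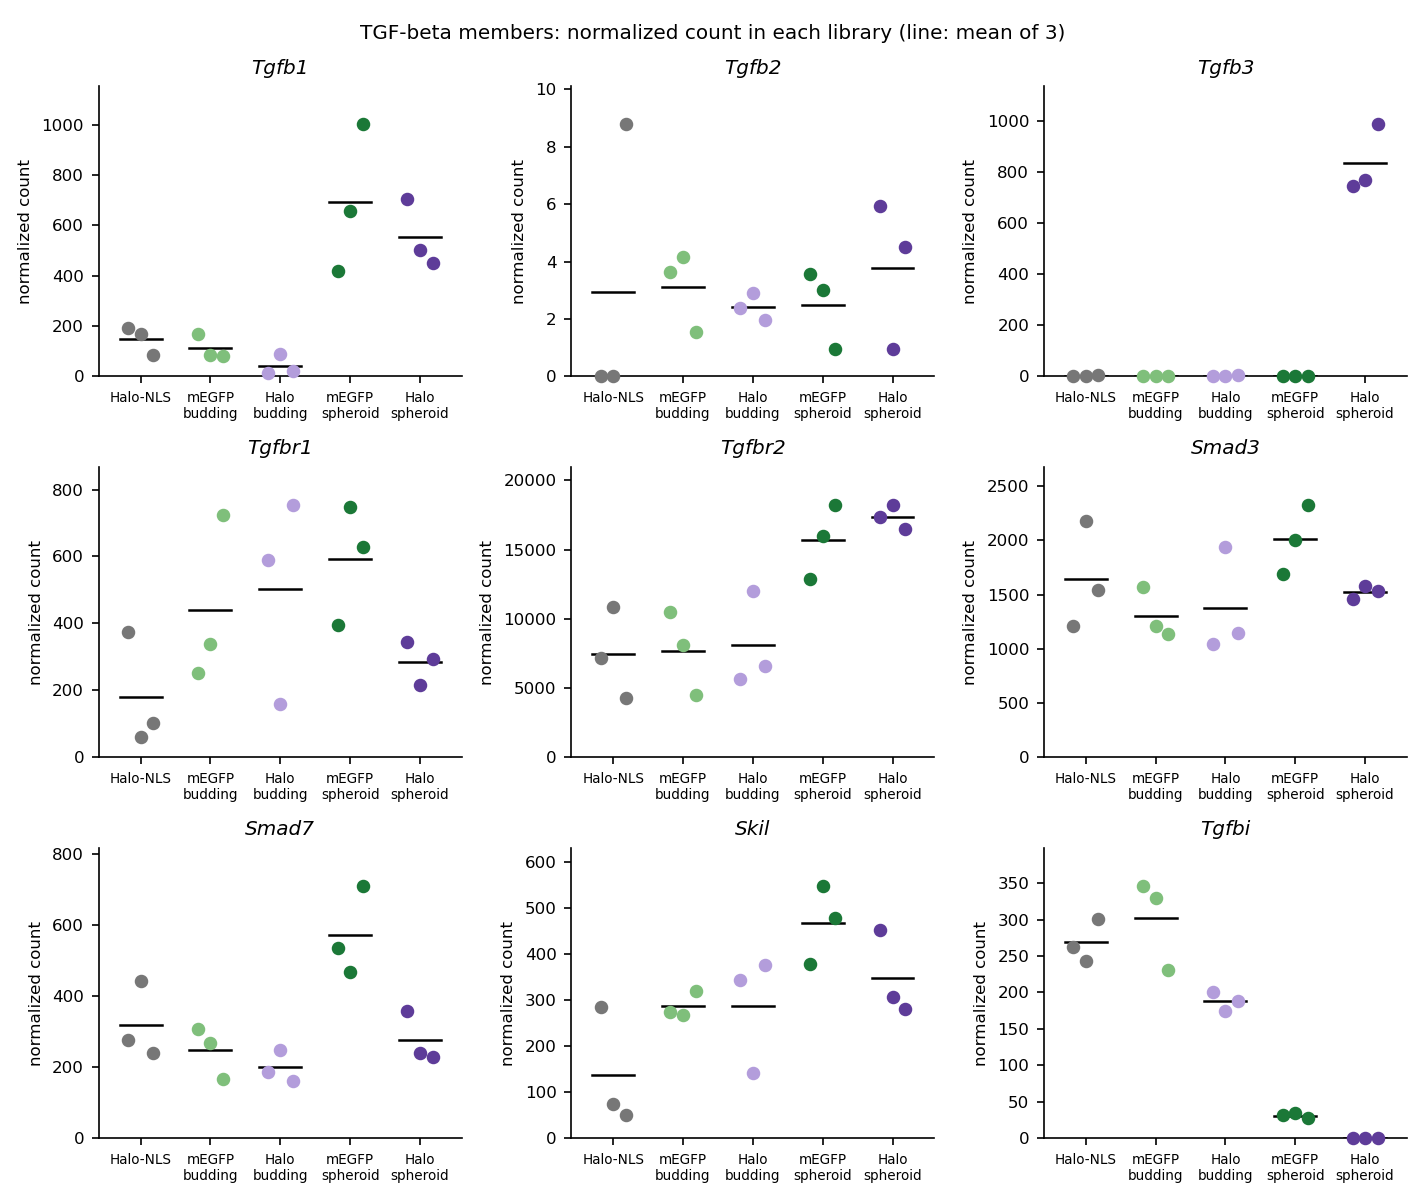
Normalized count (linear axis from 0) of each of the 9 members in each of the 15 libraries, as 3 points per condition in the order of replicates 1 to 3, with a line at their mean. Tgfb1 is higher in both spheroid conditions, Tgfb3 is present only in SOX9-Halo_spheroid (746.2 to 990.3), and Tgfbi is low in SOX9-mEGFP_spheroid (27.6 to 34.0) and at 0 in SOX9-Halo_spheroid.

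Tgfbr2, the receptor that binds the ligand (chr9:115913361-116004800), was the most abundant member. Its normalized counts were 7207, 10838 and 4289 in Halo-NLS, 10473, 8138 and 4517 in SOX9-mEGFP_budding, and 5635, 12035 and 6599 in SOX9-Halo_budding. They were 12850, 16020 and 18233 in SOX9-mEGFP_spheroid and 17358, 18217 and 16493 in SOX9-Halo_spheroid. The spheroid libraries lay above all others, by a smaller factor than for Tgfb1. The log2 fold change was 1.08, 1.22, 1.03 and 1.10 (SE 0.36 each) for SOX9-mEGFP and SOX9-Halo spheroids against Halo-NLS and then against budding organoids of the same tag, with edgeR adjusted p of 0.023, 0.012, 0.045 and 0.023. None was called. In the SOX9-Halo line same-numbered libraries were correlated, though no label pairs them. A block on replicate number in that line alone gave 1.14 and an adjusted p of 0.0060, which passed. With the GC trend removed SOX9-Halo_spheroid was called against Halo-NLS and SOX9-Halo_budding (1.37 and 1.40, adjusted p 0.0044 and 0.0039).
Tgfbr1, the kinase that TGFBR2 activates (chr4:47353134-47414931), was not called in any comparison. It had 375.1, 62.0 and 101.8 normalized counts in Halo-NLS, 251.5, 339.6 and 724.9 in SOX9-mEGFP_budding, and 590.3, 160.6 and 754.1 in SOX9-Halo_budding. It had 396.7, 749.0 and 629.5 in SOX9-mEGFP_spheroid and 343.5, 214.7 and 292.6 in SOX9-Halo_spheroid. Halo-NLS overlapped each condition except SOX9-mEGFP_spheroid. The most distant comparison from 0, SOX9-mEGFP_spheroid against Halo-NLS, had a log2 fold change of 1.72 (95% interval 0.36 to 3.09, edgeR adjusted p = 0.037). Without Halo-NLS replicate 1, the highest control library, it was 2.86 with an adjusted p of 0.0019, and SOX9-Halo_budding was then called too (2.62, 0.0069). Between the spheroids the log2 difference (SOX9-Halo minus SOX9-mEGFP) was -1.06 (-2.40 to 0.27), an interval that includes 0. On the RPKM scale the level of Tgfbr2 was 4.69 to 131.7 times that of Tgfbr1 in the 15 libraries, and both extremes came from control or budding libraries.

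Smad3, the transducer phosphorylated by TGFBR1 (chr9:63554049-63665476), was not called in any comparison. Its normalized counts ran from 1041 to 2326 over all 15 libraries, with medians of 1542 in Halo-NLS, 1210 in SOX9-mEGFP_budding, 1143 in SOX9-Halo_budding, 2007 in SOX9-mEGFP_spheroid and 1528 in SOX9-Halo_spheroid. Its largest fitted log2 fold change was 0.62 (95% interval 0.06 to 1.19, edgeR adjusted p = 0.097), for SOX9-mEGFP_spheroid against budding.
Smad7, which blocks the activated receptor, rose in the SOX9-mEGFP line. It had 277.1, 442.9 and 241.3 normalized counts in Halo-NLS, 308.6, 268.9 and 166.6 in SOX9-mEGFP_budding, and 187.8, 248.1 and 162.9 in SOX9-Halo_budding. It had 536.0, 469.6 and 711.5 in SOX9-mEGFP_spheroid, and 360.1, 239.3 and 228.7 in SOX9-Halo_spheroid. SOX9-mEGFP_spheroid lay above all other libraries, and the remaining conditions overlapped. Its increase over SOX9-mEGFP_budding was 2.31-fold (95% interval 1.45 to 3.67, edgeR adjusted p = 0.0086). That call sat close to the threshold and was kept in 5 of 15 omissions of a library, with log2 fold changes of 0.93 to 1.39 and adjusted p up to 0.055. Against Halo-NLS the log2 fold change was 0.84 (edgeR adjusted p = 0.037), and 1.19 (0.0019, called) with the GC trend removed. In the SOX9-Halo line the log2 fold change was 0.47 (-0.20 to 1.13), and the difference between the tags was not called (-0.74, -1.68 to 0.20, edgeR adjusted p = 0.35).
Skil, a nuclear repressor of SMAD complexes (chr3:31148816-31176740), was called in no comparison. It had 286.2, 74.6 and 50.3 normalized counts in Halo-NLS and 274.5, 267.9 and 319.2 in SOX9-mEGFP_budding. SOX9-Halo_budding had 344.5, 143.0 and 376.6, SOX9-mEGFP_spheroid 379.8, 548.7 and 478.1, and SOX9-Halo_spheroid 453.7, 307.4 and 281.8. As for Tgfbr1, replicates 2 and 3 of Halo-NLS and replicate 2 of SOX9-Halo_budding were the low libraries. The log2 fold change against Halo-NLS was 1.78 ± 0.52 (SE) in SOX9-mEGFP_spheroid (edgeR adjusted p = 0.011) and 1.34 ± 0.52 in SOX9-Halo_spheroid (0.043). Without Halo-NLS replicate 1 these were 2.91 and 2.48 and were called (adjusted p 7.4e-05 and 0.00020). With all libraries, DESeq2 called Skil in SOX9-mEGFP_spheroid against Halo-NLS (log2 1.74, adjusted p = 0.0028).

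The co-variation of Tgfbr1, Skil and Smad3 between replicates went along with a property of the libraries. In each library, the deviation of genes from their mean log2 CPM was regressed on the GC content of their canonical transcript. The slope was 0.91 and 0.69 log2 units per 10% GC in Halo-NLS replicates 2 and 3 and 0.33 in SOX9-Halo_budding replicate 2, against -0.04 in Halo-NLS replicate 1 and -0.49 and -0.48 in SOX9-Halo_budding replicates 1 and 3. It was -0.07, -0.07 and -0.27 in SOX9-mEGFP_budding, -0.24, -0.34 and -0.05 in SOX9-mEGFP_spheroid, and -0.05, 0.14 and 0.04 in SOX9-Halo_spheroid. Halo-NLS replicates 2 and 3 lay above all other libraries, so comparisons with Halo-NLS also differ in this slope. Within conditions, the deviation of Tgfbr1 (transcript 41.5% GC) correlated with that of the slope at r = -0.92 and the deviation of Skil (43.3% GC) at r = -0.88. Smad3 (53.7% GC) had r = 0.89, Smad7 (57.9%) and Tgfbr2 (50.1%) 0.52 each, and Tgfb1 (62.8%) 0.46. Tgfb3 (52.5%) had -0.28 and Tgfbi (53.1% GC) -0.12. All are over 15 libraries and are descriptions, since the points share libraries and condition means. For Tgfb1, the low SOX9-Halo_budding libraries (11.9 and 19.5 normalized counts in replicates 1 and 3, against 90.5) were those with negative slopes. With the GC trend removed from each library, the log2 fold change of Tgfbr1 in SOX9-mEGFP_spheroid against Halo-NLS went from 1.72 to 1.12 and stayed uncalled (edgeR adjusted p = 0.033). That of Skil went from 1.78 to 1.19 with less spread and was then called (0.0091), as it was in SOX9-Halo_spheroid (1.19, 0.0087). The calls of Tgfb1, Tgfb3 and Tgfbi kept their direction and their call with the trend removed, an alternative chosen after the data were seen. For the other pathway genes described below, values with the trend removed are not given.

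**Figure D2:**
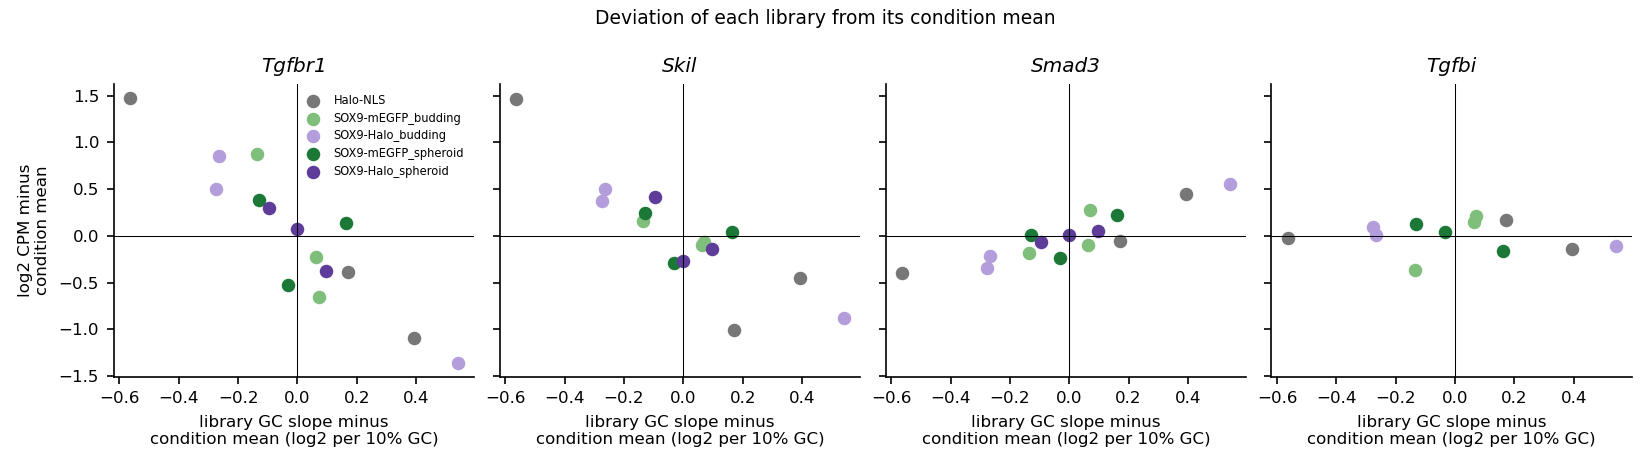
Each point is 1 library. The horizontal axis gives its GC slope and the vertical axis the log2 CPM of Tgfbr1, Skil, Smad3 or Tgfbi, each minus the mean of the library's condition (SOX9-Halo_spheroid, where Tgfbi is at 0, is left out of the last panel). Tgfbr1 and Skil fall (r = -0.92 and -0.88) and Smad3 rises (r = 0.89) with the slope.

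Tgfbi, the secreted matrix protein named for its induction by TGF-beta (chr13:56757336-56787375), fell in the spheroids of both lines, where Tgfb1 was higher than in budding organoids. Halo-NLS had 262.7, 243.3 and 300.4 normalized counts, SOX9-mEGFP_budding 346.2, 329.2 and 231.3, and SOX9-Halo_budding 201.3, 174.2 and 188.3. SOX9-mEGFP_spheroid had 31.9, 34.0 and 27.6, and in SOX9-Halo_spheroid the count was 0 in 3 of 3 libraries. Neither spheroid condition overlapped any other. In SOX9-mEGFP_spheroid Tgfbi was 8.58-fold lower than in Halo-NLS (95% interval 5.84 to 12.6, edgeR adjusted p = 1.1e-06) and 9.64-fold lower than in budding organoids of the same tag (6.55 to 14.2, edgeR adjusted p = 1.2e-06). In SOX9-Halo_spheroid, taking the limit of 3 counts per library that a count of 0 allows, it was at least 88.7-fold lower than in Halo-NLS, at least 62.0-fold lower than in SOX9-Halo_budding and at least 10.3-fold lower than in SOX9-mEGFP_spheroid (edgeR adjusted p = 4.4e-09, 6.7e-09 and 4.7e-07). The fall from budding organoids was larger in the SOX9-Halo line by the interaction test (edgeR adjusted p = 1.1e-05). The markers of adult small intestinal epithelium fell across the same conditions, with the ranges given above, and their part in the result was not tested. All 6 calls held in 15 of 15 omissions. In budding organoids the log2 fold change against Halo-NLS was 0.17 (-0.33 to 0.67) for SOX9-mEGFP and -0.52 (-1.02 to -0.01, edgeR adjusted p = 0.12) for SOX9-Halo.

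**Figure D3:**
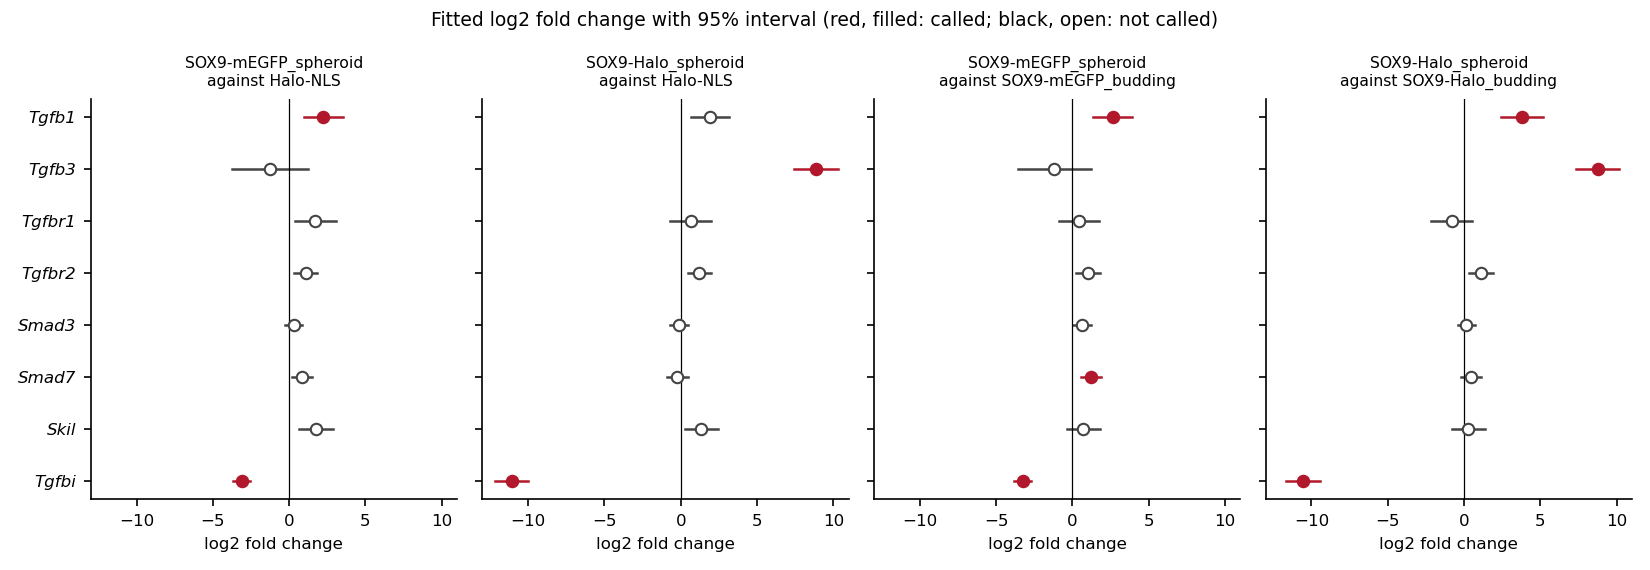
Fitted log2 fold change and 95% interval of the 8 tested members in 4 comparisons of spheroids, called genes as filled red points and others as open points. Tgfb1 and Tgfb3 lie to the right where called and Tgfbi to the left in all 4 panels, whereas Tgfbr1, Tgfbr2, Smad3 and Skil are not called. The fitted values of Tgfbi in SOX9-Halo_spheroid, where its count was 0, depend on the model's prior count and are not a measured size.

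By comparison, 0 of 8 tested members were called in SOX9-mEGFP_budding against Halo-NLS and 0 in SOX9-Halo_budding against Halo-NLS (edgeR), where 2.76% and 3.75% of all tested genes were called. At an unadjusted p under 0.05 the counts were 0 and 4 members, against 34.4% and 37.5% of all genes, and DESeq2 called 0 members in each, against 2.26% and 3.03% of the genes with a count. Against Halo-NLS, 2 members were called in SOX9-mEGFP_spheroid (Tgfb1 and Tgfbi, 27.5% of all genes) and 2 in SOX9-Halo_spheroid (Tgfb3 and Tgfbi, 28.9%). At an adjusted p of at most 0.05 with no other minimum, 1 member passed in SOX9-Halo_budding (18.9% of all genes), 6 in SOX9-mEGFP_spheroid (49.8%) and 5 in SOX9-Halo_spheroid (48.4%) against Halo-NLS. Within the lines, 3 were called in SOX9-mEGFP (Tgfb1, Smad7 and Tgfbi, 16.4% of all genes) and 3 in SOX9-Halo (Tgfb1, Tgfb3 and Tgfbi, 25.3%). Between budding conditions 0 were called (0.456% of all genes, with 2 members and 8.37% of all genes at an unadjusted p under 0.05, and 0 members and 0.37% of genes with a count by DESeq2), between spheroid conditions 2 (Tgfb3 and Tgfbi, 13.2%), and in the difference between the tags the same 2 genes (7.39%). The libraries of the 2 groups did not overlap for 6 members in SOX9-mEGFP_spheroid (56.5% of all genes) and 4 in SOX9-Halo_spheroid (54.8%) against Halo-NLS, and for 6 (46%) and 4 (52.8%) within the SOX9-mEGFP and SOX9-Halo lines. With 8 members, these shares are near those of all genes in the comparisons with Halo-NLS. The median log2 fold change of the members was 0.96 and 0.94 in the spheroids against Halo-NLS and 0.66 and 0.37 against budding organoids (SOX9-mEGFP first), where the median of all tested genes was 0.03, -0.01, -0.04 and -0.08.

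The rest of the pathway was read from 6 lists with 65 further genes, of which 52 were tested. Of the 52, 16 were called higher and 7 lower in SOX9-mEGFP_spheroid against Halo-NLS, and 17 higher and 7 lower in SOX9-Halo_spheroid. Within the SOX9-mEGFP line 11 were higher and 4 lower in spheroids, and within the SOX9-Halo line 16 were higher and 9 lower. Over all tested genes, 15.3%, 13.6%, 8.55% and 10.5% were called higher and 12.1%, 15.3%, 7.88% and 14.7% lower in these comparisons. In budding organoids against Halo-NLS, 4 of the 52 were called in SOX9-mEGFP (1 higher and 3 lower) and 3 in SOX9-Halo (1 higher and 2 lower). Of all tested genes, 2.76% and 3.75% were called there in either direction. In all 4 comparisons of spheroids 11 of the 52 genes were called, 8 higher and 3 lower in each, against 5.11% and 5.64% of all tested genes.

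Of 9 tested genes of the latent complex and of ligand release, 5 and 6 were called higher against Halo-NLS (SOX9-mEGFP first) and 5 and 4 against budding organoids, and 1, 0, 0 and 0 lower. The gene called lower was Nrros, which anchors latent TGF-beta on myeloid cells (log2 -3.30 in SOX9-mEGFP_spheroid against Halo-NLS, edgeR adjusted p = 4.0e-05), named after its values were seen. It had 28.9 ± 7.10 normalized counts (SD, n = 3) in Halo-NLS and 2.82 ± 0.838 in SOX9-mEGFP_spheroid. The budding organoids of that line were already low, at 3.87 ± 1.56. Thbs1, the gene of thrombospondin 1, which can release the active ligand, had 14.5 ± 2.80 (SD, n = 3) normalized counts in Halo-NLS, 168 ± 126 in SOX9-mEGFP_budding, 128 ± 68.9 in SOX9-Halo_budding, 1797 ± 637 in SOX9-mEGFP_spheroid and 4355 ± 1230 in SOX9-Halo_spheroid. It was the one gene of this list called higher in budding organoids (log2 3.54 ± 0.58 and 3.13 ± 0.58 SE against Halo-NLS, edgeR adjusted p = 0.0020 and 0.0042). Itgb6, the beta subunit of the integrin that activates latent TGF-beta on epithelia, rose by log2 2.58 ± 0.26 and 2.44 ± 0.26 (SE) from budding to spheroid in the SOX9-mEGFP and SOX9-Halo line (edgeR adjusted p = 3.2e-06 and 1.9e-06).
The latent TGF-beta binding proteins Ltbp3 and Ltbp4 also rose in spheroids. Ltbp4 went from 34.4 ± 19.9 normalized counts (SD, n = 3) to 1111 ± 548 in the SOX9-mEGFP line and from 29.3 ± 15.2 to 2863 ± 427 in the SOX9-Halo line, with 27.9 ± 1.86 in Halo-NLS. Ltbp3 was first lower in budding organoids than in Halo-NLS (log2 -2.20 ± 0.43 and -1.95 ± 0.42 SE, edgeR adjusted p = 0.0060 and 0.0093) and then higher in spheroids, at 517 ± 188 and 864 ± 46.1 normalized counts (SD, n = 3) against 63.9 ± 17.4 in Halo-NLS. Furin, the protease that cleaves the propeptide and the most abundant gene of the list, was not called (log2 0.28, 95% interval -0.47 to 1.02, and 0.39, -0.35 to 1.14, from budding to spheroid).

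Among 8 genes of activins and related ligands only 2 were tested. Inhba, the subunit of activin A, which signals through SMAD2 and SMAD3 as well, had 0.810 ± 1.40 normalized counts in SOX9-mEGFP_budding and 0.650 ± 1.13 in SOX9-Halo_budding (SD, n = 3). It rose to 13.3 ± 2.69 in SOX9-mEGFP_spheroid and 76.7 ± 51.6 in SOX9-Halo_spheroid (edgeR adjusted p = 0.0093 and 4.3e-05 against budding). Halo-NLS had 2.48 ± 3.35, and against it Inhba was called in SOX9-Halo_spheroid but not in SOX9-mEGFP_spheroid. Gdf11 was not called in the 4 comparisons and differed between the spheroids, with 17.8 ± 7.25 in SOX9-mEGFP and 95.6 ± 51.0 in SOX9-Halo (edgeR adjusted p = 0.0030).
Of 7 other receptors, 1 and 1 were called higher and 3 and 2 lower against Halo-NLS (SOX9-mEGFP first). Against budding organoids 0 and 1 were called higher and 2 and 2 lower. The 2 called lower in all 4 comparisons, against 5.64% of all tested genes, were Tgfbr3 and Acvr1c. Tgfbr3, the co-receptor betaglycan, which presents the ligand to TGFBR2, had 21.8 ± 9.22 normalized counts in Halo-NLS, 18.4 ± 1.26 and 24.5 ± 7.52 in budding SOX9-mEGFP and SOX9-Halo organoids (SD, n = 3), and 2 counts and 1 count in all 3 libraries of either spheroid condition. The scaled ratio of budding to spheroid was 29.5 (exact 95% counting interval 7.79 to 249) for SOX9-mEGFP and 72.8 (12.7 to 2911) for SOX9-Halo. Acvr1c, the nodal and activin receptor ALK7, fell from 98.1 ± 28.0 to 7.81 ± 2.95 in the SOX9-mEGFP line and from 103 ± 49.9 to 2.83 ± 1.92 in the SOX9-Halo line (edgeR adjusted p = 0.00028 and 2.0e-05). The activin receptors Acvr1b and Acvr2a were not called in these 4 comparisons, and Acvr2b was lower in SOX9-mEGFP_spheroid than in Halo-NLS (log2 -1.11, edgeR adjusted p = 0.0060).
The shared transducers Smad2 and Smad4 and the SMAD anchor Zfyve9 were not called in these comparisons. From budding to spheroid, Smad2 had log2 fold changes of 0.08 (95% interval -0.36 to 0.53) and 0.07 (-0.37 to 0.52), and Smad4 -0.30 (-0.68 to 0.08) and -0.58 (-0.96 to -0.20, edgeR adjusted p = 0.016). For Zfyve9 the values were -0.36 (-1.13 to 0.42) and -1.02 (-1.80 to -0.24, edgeR adjusted p = 0.036).

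Of 15 tested inhibitors, 4 and 5 were called higher and 2 and 2 lower against Halo-NLS (SOX9-mEGFP first). Against budding organoids 2 and 5 were called higher and 2 and 2 lower. Of all tested genes, 15.3% and 13.6% were called higher and 12.1% and 15.3% lower against Halo-NLS. Against budding organoids the shares were 8.55% and 10.5% higher and 7.88% and 14.7% lower. Bambi, a decoy receptor without kinase that TGF-beta induces, fell as Tgfbi did. It had 63.9 ± 34.6 normalized counts in Halo-NLS, 81.6 ± 20.0 in SOX9-mEGFP_budding, 71.8 ± 14.3 in SOX9-Halo_budding and 13.3 ± 6.20 in SOX9-mEGFP_spheroid (SD, n = 3), and a count of 0 in the 3 SOX9-Halo_spheroid libraries. The fall was at least 23.7-fold within the SOX9-Halo line, against a log2 fold change of -2.60 ± 0.47 (SE, edgeR adjusted p = 0.00097) within the SOX9-mEGFP line, and the difference between the tags was called (edgeR adjusted p = 0.0032). Fst, the gene of follistatin, which binds activin, rose from 12.2 ± 4.93 to 139 ± 15.9 and from 8.56 ± 5.51 to 39.3 ± 3.47 (edgeR adjusted p = 8.4e-05 and 0.0028). The abundant Ppm1a, Ski and Nedd4l were not called in these 4 comparisons.

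Targets of the pathway were called in both directions, except within the SOX9-mEGFP line, where 0 were called lower. Of 16 tested, 6 and 4 were called higher and 1 and 3 lower against Halo-NLS (SOX9-mEGFP first). Against budding organoids 3 and 5 were called higher and 0 and 5 lower. Of all tested genes, 15.3% and 13.6% were called higher and 12.1% and 15.3% lower against Halo-NLS. Against budding organoids these shares were 8.55% and 10.5% higher and 7.88% and 14.7% lower. Ccn2, the gene of connective tissue growth factor and also a YAP target, rose from 8.15 ± 8.72 to 1665 ± 638 normalized counts in the SOX9-mEGFP line and from 2.54 ± 2.86 to 1023 ± 254 in the SOX9-Halo line (SD, n = 3, edgeR adjusted p = 7.1e-07 and 1.8e-07). Fn1, the matrix protein fibronectin, rose from 2.97 ± 1.02 to 216 ± 161 and from 3.34 ± 2.44 to 57.9 ± 10.7 (edgeR adjusted p = 3.5e-05 and 0.00051). Among the most abundant targets, Cdkn1a, a cell cycle inhibitor, and Bhlhe40, a transcriptional repressor, were not called in any of the 4 comparisons. In the same spheroids Ccn2 and Fn1 were higher than in budding organoids, while Tgfbi, a member, and Bambi, of the inhibitors, were lower.

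**Figure D4:**
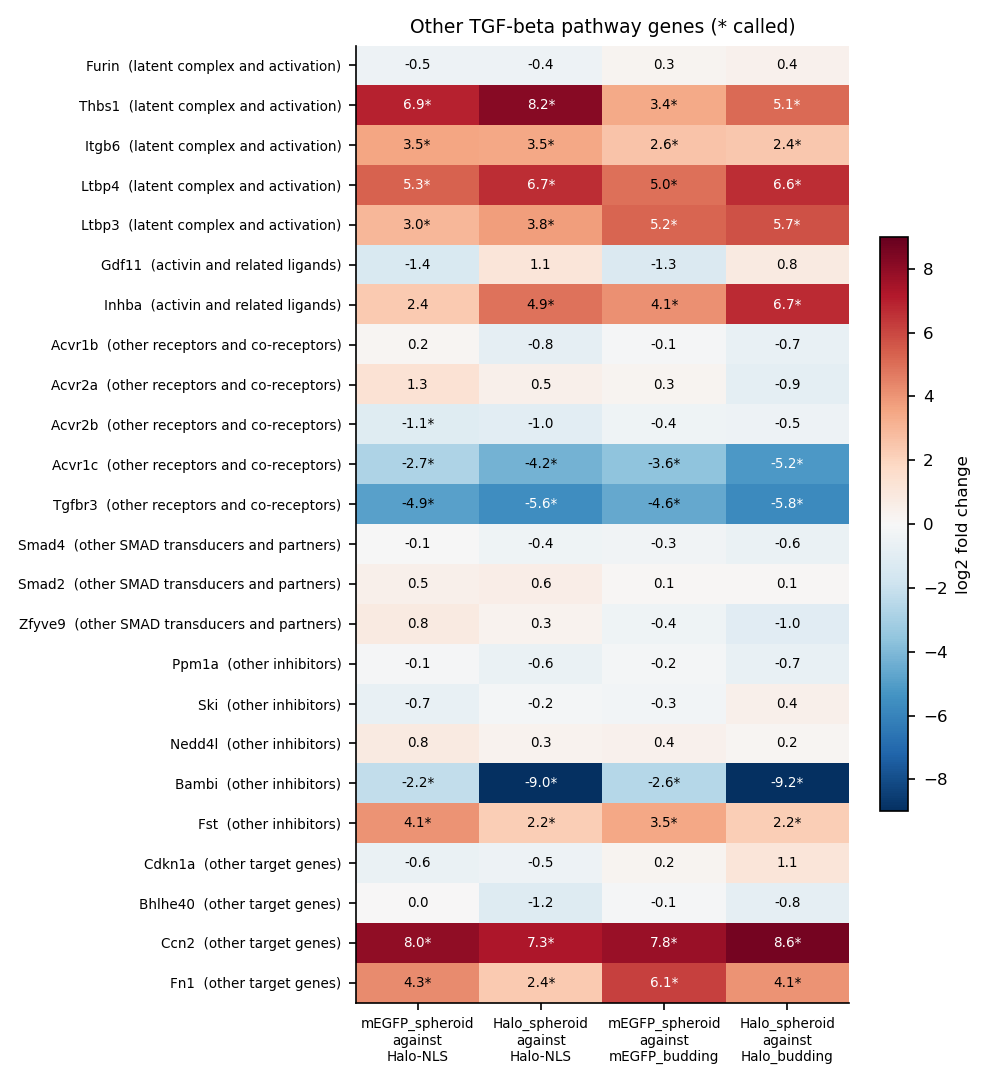
Fitted log2 fold change (colour and printed value) of 24 other pathway genes in the 4 comparisons of spheroids, with an asterisk where the gene was called. Thbs1, Itgb6, Ltbp3 and Ltbp4, genes of the latent complex and ligand release, and the targets Ccn2 and Fn1 are higher in each column, and Acvr1c, Tgfbr3 and Bambi lower.

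Other genes followed the members closely across the 15 libraries. By Pearson's r of log2 CPM among 10584 genes, the pattern of Tgfb1 was most like those of Litaf (r = 0.981) and Rarg (0.977). That of Tgfb3 was most like Padi4 (0.990) and Wfdc2 (0.990), and that of Tgfbi most like Pipox (0.994) and Cyp2d26 (0.991). Tgfbr2 was closest to Stat3 (0.956) and Kpna6 (0.953), Smad3 to Itpr3 (0.939) and Dnm2 (0.923), and Smad7 to Slc6a9 (0.952) and H6pd (0.942). Tgfbr1 was closest to Tasor2 (0.985) and Togaram1 (0.981), and Skil to Hif1a (0.987) and Mef2a (0.981). These values describe libraries that share conditions and base composition.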

How the data were processed

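Poly-A RNA of 15 organoid libraries in 5 conditions was sequenced, and conditions were taken from the sample labels. According to the submitters' processing notes and the study's methods, reads were trimmed with cutadapt 4.5, aligned to mm39 (GRCm39) with STAR and counted on genes with HTSeq 2.0.2 in union mode without strand, so that ambiguous reads (9.65% to 13.6% here) were left out. The deposited counts per gene are whole numbers and were not normalized by the authors. Their normalized table and 7 comparison tables (fold changes and p-values) were not used.

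Counts were filtered with filterByExpr, scaled with TMM and fitted with edgeR 4.0.16 (quasi-likelihood, R 4.3.3, limma 3.58.1), with 1 coefficient per condition over the 15 libraries. Standard errors were taken from the log2 fold change and the F statistic (its size over the root of F). Of 17560 genes tested, 15718 reached an average of 10 normalized counts, and the common biological coefficient of variation was 0.302. Positions, exon lengths and GC content came from GENCODE M39 (GRCm39), with GC content known for 99.95% of tested genes. Alternatives were DESeq2 1.42.0, other scaling, no filter, the compared libraries alone, a replicate block, other thresholds, each library left out, and, added after the data were seen, removal of each library's smooth GC trend. On data simulated for SOX9-Halo_spheroid against Halo-NLS (16931 genes), 31% of 100 genes changed by log2 1.5 and 88% of 100 changed by log2 3 were called, and 2 unchanged genes. Replicates are separate samples by their labels, and the study's methods call them biological triplicates, from organoids within 2 passages of the passage given. How the triplicates were kept apart in culture is not described, so p-values measure the spread between these samples.

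Replicate numbers were tested for pairing. All 3 same-numbered pairs of SOX9-Halo_budding and SOX9-Halo_spheroid had deviations correlated above 0.1 (r = 0.403, 0.234 and 0.344 over 11054 genes). In the other 9 pairs of conditions not all 3 did, though single pairs reached higher values, up to 0.817 (replicate 2 of Halo-NLS and SOX9-Halo_budding). No label or method states a pairing, so the block within the SOX9-Halo line rests on correlation alone.

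The members and gene lists were chosen with earlier results of these data known. Named were the members, the 3 most abundant genes of each list, pathway genes called in all 4 comparisons of spheroids with Halo-NLS or budding organoids, Sox9, and the 2 genes most like each tested member. The counts of lists include 1 gene named by this rule that is not reported here. Of the activin list the third gene, Inhbb, had a mean normalized count of 0.517 and was not tested. The most abundant marker genes were Krt8, Krt19 and Krt18 (epithelium), Lgals4, Fabp1 and Vil1 (adult small intestine), Pdgfrb, Des and Col1a1 (fibroblast and smooth muscle), Itgam, Csf1r and Cd3e (immune) and Pecam1, Tek and Kdr (endothelium).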

Additional observations from a re-analysis of the deposited data

Results flagged for a closer look

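The SOX9-Halo and SOX9-mEGFP lines differed in how spheroids compared with budding organoids, by the interaction term of the edgeR model, for 2 members and 1 other named pathway gene. For Tgfb3 the fitted log2 difference (SOX9-Halo minus SOX9-mEGFP) was 9.92 ± 1.51 (SE, edgeR adjusted p = 0.00038), with 746.2 to 990.3 normalized counts in the 3 SOX9-Halo_spheroid libraries and at most 3.90 in the other libraries of both SOX9 lines. For Tgfbi it was -7.29 ± 0.67 (adjusted p = 1.1e-05) and for Bambi -6.57 ± 1.25 (adjusted p = 0.0032), both with a count of 0 in each SOX9-Halo_spheroid library and above 0 in each SOX9-mEGFP_spheroid library. Since each gene is at or near 0 in some condition, these fitted values depend on the model's prior count and are not bounds. The lines also differ in tag, second transgene and passage, which cannot be told apart.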

How the results depend on the processing

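Over all alternatives the log2 fold changes of members were refitted 1587 times, 1080 of them with a library left out. Of 311 refits of called values 290 kept and 21 lost the call, 48 refits of other values gained one, and 50 changed sign, 0 of them of a called value. The cause was not tested. The number of members called moved by more than 1.5 times as follows, and the cause was not tested except where a setting tests fewer samples. Against Halo-NLS, SOX9-mEGFP_spheroid (2 reported) had 5 with library sizes alone, 5 without the low-count filter, 4 with the replicate block, 4 with the GC trend removed and 6 at an adjusted p of 0.05 with no minimum, and 1 to 4 when a library was left out. SOX9-Halo_spheroid (2 reported) had 4, 5 and 5 with library sizes alone, no filter and the GC trend removed, 4 with DESeq2, 5 at 0.05, and 2 to 4 with a library left out. SOX9-mEGFP_budding (0) had 1 without the filter and 0 to 1 with a library left out (Skil without Halo-NLS replicate 1). SOX9-Halo_budding (0) had 2 without the filter, 1 at 0.05, and 0 to 2 with a library left out (Tgfbr1 and Skil without Halo-NLS replicate 1, Tgfb1 without SOX9-Halo_budding replicate 2). SOX9-mEGFP_spheroid against SOX9-mEGFP_budding (3) had 1 to 3 with a library left out, SOX9-Halo_budding against SOX9-mEGFP_budding (0) had 1 without the filter, and the difference between the tags (2) had 1 without SOX9-mEGFP_budding replicate 3. The replicate block gave 3 and 4 called members within the SOX9-mEGFP and SOX9-Halo lines and 4 in a fit of the SOX9-Halo line alone, adding Tgfbr2. It also added Tgfbr2 in both spheroids and Skil in SOX9-mEGFP_spheroid against Halo-NLS, where not all same-numbered libraries were correlated.

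With a library left out, 33 refits in 18 pairs of member and comparison changed sign, to between -0.80 and 1.22, both for Tgfb3 in budding organoids against Halo-NLS. The other settings, and for each pair the omission that moved the value most, gave these changes of sign. Skil between budding conditions (0.00 reported) was -0.0052 with RLE scaling, -0.0066 without the filter, -0.0077 with DESeq2, -0.064 with the block and -0.11 with the GC trend removed. With the GC trend removed, Skil was 0.0020 between spheroids and 0.11 in the difference between the tags. Without SOX9-Halo_budding replicate 2 it was -0.051 within the SOX9-Halo line. Tgfb3 in SOX9-mEGFP_budding against Halo-NLS was 0.19 with library sizes alone, 0.025 without the filter and 0.020 with the GC trend removed. Tgfb3 in SOX9-mEGFP_spheroid was 0.033 against Halo-NLS without Halo-NLS replicate 3 and 0.097 against budding without SOX9-mEGFP_budding replicate 3. Tgfbr2 was -0.096 in SOX9-mEGFP_budding and -0.033 in SOX9-Halo_budding against Halo-NLS with the GC trend removed, and without SOX9-Halo_budding replicate 2 it was -0.28 there and -0.34 between budding conditions, where Smad3 was -0.26. Smad3 in SOX9-Halo_budding against Halo-NLS was 0.030 with library sizes alone. In SOX9-Halo_spheroid against Halo-NLS, Smad3 was 0.18 with library sizes alone, 0.25 with the GC trend removed and 0.15 without Halo-NLS replicate 2, and Smad7 was 0.065, 0.22 and 0.098. Tgfb1 between spheroids was 0.031 without SOX9-mEGFP_spheroid replicate 3. With library sizes alone the all-gene median moved by up to 0.31.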
